A study of Homo sapiens with 18 samples.

Results

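The insulin-like growth factor (IGF) axis was examined in human pancreatic progenitors through 10 of its genes. They were chosen by name, with earlier results of these data known. They are the ligand *IGF2*, the receptors *IGF1R* and *IGF2R*, and the binding protein genes *IGFBP1* to *IGFBP7*. All 10 were found among the 21944 genes of the deposited table, and each is listed at all 3 times. The cells were pancreatic progenitors derived from human embryonic stem cells (hESC) and taken at day 19 of differentiation. They were detached and reseeded on fibronectin (FN) or on laminin-411 (LN411), a laminin isoform with low adhesion, and collected 3, 6 or 24 h later. There were 18 samples, 3 in each of the 6 groups, namely FN at 3 h, FN at 6 h, FN at 24 h, LN411 at 3 h, LN411 at 6 h and LN411 at 24 h. The sample labels name the HUES4 line, while the growth protocol describes a reporter line for *NEUROG3* derived from SA121. The paper also names that reporter line for this sequencing. No group was left without reseeding, so that all groups share the detachment and the new matrix.

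The level used throughout is the mean normalized count, which the authors pooled over all samples of both matrices and all times. It is 1 value per gene, with no spread and no number of replicates, so that no difference between LN411 and FN, between times or between replicates is given below. Values of single samples were not used here, and the depth of each library is unknown. The table's remaining columns hold the authors' own comparisons of LN411 with FN, and these were not used. Since long transcripts collect more reads, the levels of genes are compared with each other on the mean normalized count per kilobase, in which the count is divided by the length of the gene's merged exons in GENCODE v44. Ranks and shares by the count itself are also given and named as such, and they favour long transcripts. A gene model was found for 21861 of the 21944 genes. Their median level was 76.2 mean normalized counts per kilobase. The order of genes below is therefore a description of this culture as a whole, with no test of neighbouring genes.

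IGF signalling controls growth and survival in many tissues, and IGF2 is the ligand that dominates fetal life. IGF2 and its relative IGF1 act through IGF1R, a tyrosine kinase receptor, and through the insulin receptor, whereas IGF2R, the mannose 6-phosphate receptor, takes IGF2 up for degradation. The binding proteins hold the ligands outside the cell, where they can block them, store them or carry them. IGFBP7 belongs to the same family by structure but binds IGFs weakly.

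Most of the 10 chosen genes were strongly expressed in these cultures. As the 10 were chosen with earlier results of these data known, their counts do not stand for the axis as a whole. Other genes of the axis, such as *IGF1* and *INSR*, are given below. *IGF2* and *IGFBP2* were among the most abundant transcripts, at ranks 29 and 34 of all genes by mean normalized count. By the same count, 7 of the 10 genes lay in the highest 10% of all genes, which began at a mean normalized count of 5363. The exceptions were *IGFBP6*, *IGFBP4* and *IGFBP1*. Per kilobase, 6 of the 10 lay in the highest 10%, which began at 1010, and 9 of the 10 lay above the median of all genes. The median of the 10 genes was 3274 mean normalized counts per kilobase. Together, the 10 genes held 0.635% of all mean normalized counts.

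**Figure D1:**
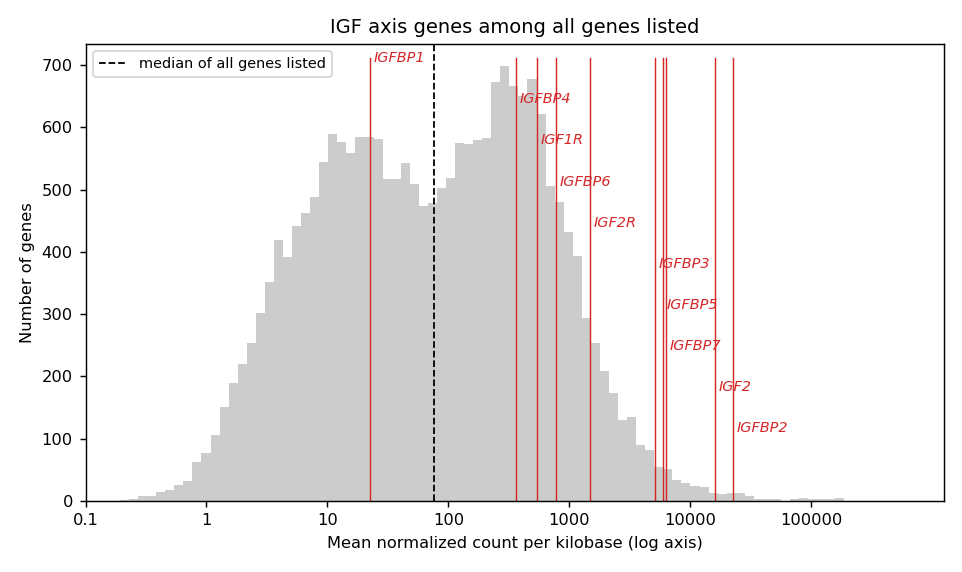
Histogram of the mean normalized count per kilobase of merged exons (log axis) over the 21861 genes with a gene model, where the y axis is the number of genes, each red line is 1 gene of the IGF axis and the dashed line is the median of all genes, 76.2. *IGFBP1* is the only member left of the median, and *IGF2* and *IGFBP2* lie in the right tail.

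*IGF2* (ENSG00000167244) encodes the growth factor itself and is an imprinted gene expressed from the paternal allele. It lies on the minus strand of chromosome 11 of GRCh38, from 2129112 to 2158391. Its mean normalized count was 114481, and its level per kilobase was 16020, higher than that of 99.6% of genes. The other ligands were near the lower end of the table. *IGF1* had a mean normalized count of 17.7 and *INS*, which encodes insulin, one of 8.32. Per kilobase, *IGF1* stood at 2.18 and *INS* at 12.7, both below the median of all genes. Exons of other genes overlap 82.5% of the exon bases of *IGF1* and 37.5% of those of *INS*, so that the counts of both are uncertain. The level per kilobase of *IGF2* was 7345 times that of *IGF1* on merged exons. It was 2316 times with the same counts divided by bases free of other genes.

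The value of *IGF2* depends on how reads at this locus were assigned. In GENCODE v44, 44.4% of the merged exon bases of *IGF2* also belong to exons of other genes. An unnamed gene on the same strand, ENSG00000284779, shares 2711 bases, and the read-through gene *INS-IGF2* shares 1460. The antisense gene *IGF2-AS* shares 333 bases. STAR counts a read for a gene only when it overlaps no other annotated gene, so that reads in shared bases could be left uncounted. The authors counted with an older GENCODE release, in which these overlaps may differ. Dividing by the 3971 bases that no other gene overlaps gave 28829 for *IGF2*, the highest level of the 10 genes, in place of 16020. *IGF2-AS* was listed with a mean normalized count of 1435. The library kit named in the labels is not described there as strand-specific, and without strand the reads of *IGF2* and *IGF2-AS* cannot be told apart in their 333 shared bases. *H19*, the non-coding gene that is imprinted in the opposite way to *IGF2*, had a mean normalized count of only 33.4, or 9.66 per kilobase, below the median of all genes.

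Both member receptors were well expressed, and the clearing receptor was the higher one. *IGF2R* (ENSG00000197081; chromosome 6, plus strand, 159969082 to 160113507) had a mean normalized count of 33321, and *IGF1R* (ENSG00000140443; chromosome 15, plus strand, 98648539 to 98964530) one of 7586. Per kilobase, *IGF2R* stood at 1474 and *IGF1R* at 544, so that *IGF2R* was 2.71 times the level of *IGF1R*. With the longest transcript of each gene as the length, this ratio was 3.78. *INSR*, the insulin receptor gene and the closest relative of *IGF1R*, stood at 477 per kilobase. The ratio of *IGF1R* to *INSR* was 1.14, and without a spread it cannot be said whether these genes differ. *INSRR*, which encodes the insulin receptor-related receptor, had a mean normalized count of 3.82. The ligand stood well above its receptors, with *IGF2* at 10.9 times the level per kilobase of *IGF2R* and 29.4 times that of *IGF1R* on merged exons. With the same counts divided by bases free of other genes, these ratios were 19.1 and 53.0.

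The 7 binding protein genes covered a wide range, from 22.3 to 22540 mean normalized counts per kilobase, and are described in 3 tiers that were drawn after the values were seen. *IGFBP2* stood alone at the top. *IGFBP7*, *IGFBP5* and *IGFBP3* followed within a narrow span. *IGFBP6*, *IGFBP4* and *IGFBP1* were much lower, and *IGFBP1* was the only one of the 7 below the median of all genes.

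*IGFBP2* (ENSG00000115457; chromosome 2, plus strand, 216632828 to 216664436) encodes a carrier of IGF2 that also holds a short integrin-binding motif. Its mean normalized count was 106887 and its level per kilobase 22540, higher than that of 99.8% of genes and the highest of the 10. It held 58.6% of the summed mean normalized counts of the 7 binding protein genes and 55.0% of their summed level per kilobase, or 75.1% on canonical transcripts. The value per kilobase rests on the gene model, since the merged exons span 4742 bases and the canonical transcript only 1414, which gave 75592. *IGF2* was at 0.711 times the level of *IGFBP2* on merged exons and at 0.271 times on canonical transcripts. Dividing the same counts by bases free of other genes turned this order around, with *IGF2* at 28829 and *IGFBP2* at 22540. Only the length of *IGF2* changed, from 7146 to 3971 bases, and its reads were not counted again.

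The second tier held genes of different kinds. *IGFBP7* (ENSG00000163453; chromosome 4, minus strand, 57030773 to 57110385), the low-affinity member and a secreted matrix-associated protein, had a mean normalized count of 12158 and a level of 6299 per kilobase. *IGFBP5* (ENSG00000115461; chromosome 2, minus strand, 216672105 to 216695549), whose protein binds to the extracellular matrix, had a mean normalized count of 38217 and a level of 5910 per kilobase. *IGFBP3* (ENSG00000146674; chromosome 7, minus strand, 45912245 to 45921874) encodes the main IGF carrier of blood plasma and had a mean normalized count of 23182 and a level of 5074 per kilobase. These 3 genes changed places with the gene model. On longest transcripts, *IGFBP3* came first at 8811, followed by *IGFBP7* at 8520 and *IGFBP5* at 6126. Their order is therefore not fixed by these data. *IGFBP7* shared 18.3% of its exon bases with other genes. Of these, 260 bases belong to *POLR2B*, a gene on the opposite strand listed at 13314 mean normalized counts. *IGFBP5* shared 7.53%, with the antisense gene *DIRC3-AS1* at 20.5 mean normalized counts.

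The lowest tier began with *IGFBP6* (ENSG00000167779; chromosome 12, plus strand, 53097436 to 53102345), which prefers IGF2 over IGF1. Its mean normalized count was 1046 and its level 777 per kilobase, above that of 86.9% of genes. *IGFBP4* (ENSG00000141753; chromosome 17, plus strand, 40443450 to 40457725), an inhibitor of IGF action that is cut by proteases, had a mean normalized count of 796 and a level of 361 per kilobase. *IGFBP6* was at 2.15 times the level of *IGFBP4*. *IGFBP1* (ENSG00000146678; chromosome 7, plus strand, 45888360 to 45893660), a carrier made by liver and decidua and repressed by insulin, had a mean normalized count of only 36.6. Its level of 22.3 per kilobase was above that of 32.9% of genes. *IGFBP2* stood at 1012 times the level per kilobase of *IGFBP1* on merged exons and at 3128 times on canonical transcripts.

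**Figure D2:**
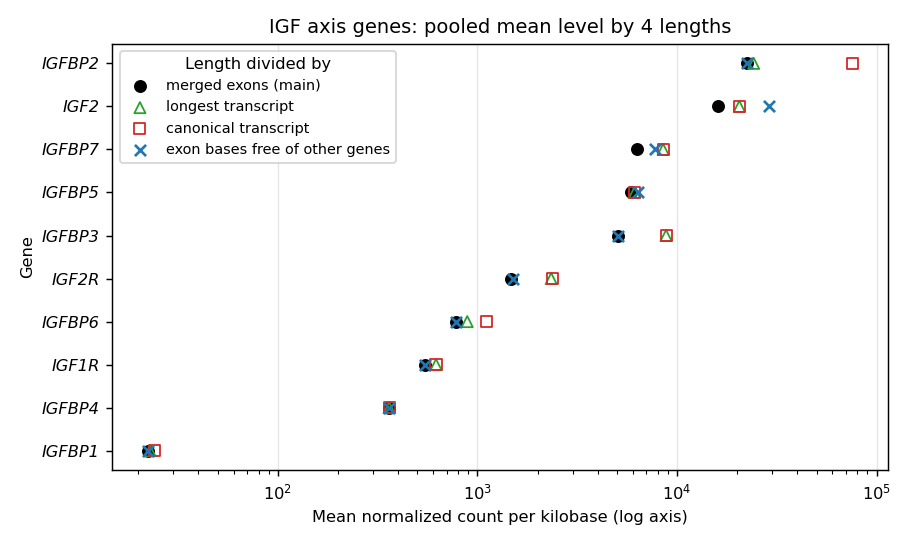
Mean normalized count per kilobase (log axis) of each gene of the IGF axis, pooled by the authors over all samples, with the count divided by 4 lengths (symbols). *IGFBP2* moves most, from 22540 on merged exons to 75592 on its canonical transcript, while the order *IGF2R*, *IGFBP6*, *IGF1R*, *IGFBP4*, *IGFBP1* at the lower end is the same under all 4 lengths.

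**Figure D3:**
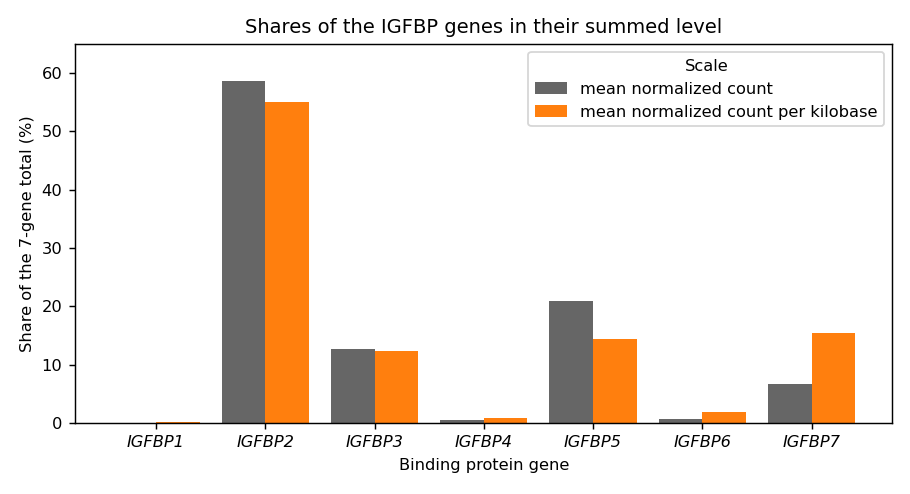
Share (%) of each binding protein gene in the sum over all 7, by mean normalized count (grey bars) and by mean normalized count per kilobase of merged exons (orange bars). *IGFBP2* holds more than any other gene on both scales, with 58.6% and 55.0%, and *IGFBP7* holds 6.67% by count and 15.4% per kilobase of merged exons, or 8.47% per kilobase of canonical transcripts, which are not drawn.

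Of the binding protein genes, 4 lie in neighbouring pairs, and the members of a pair had unlike levels. *IGFBP2* and *IGFBP5* lie tail to tail on chromosome 2 with 7668 bases and 0 protein-coding genes between them, and *IGFBP2* was at 3.81 times the level per kilobase of *IGFBP5* on merged exons and at 12.3 times on canonical transcripts. *IGFBP1* and *IGFBP3* lie tail to tail on chromosome 7 with 18584 bases and 0 protein-coding genes between them. Here the levels per kilobase were 22.3 and 5074.

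The genes that act on the binding proteins and on *IGF2* mRNA were taken from named lists. Among the proteases and their inhibitors, *PAPPA* and *PAPPA2*, which encode the pappalysins that cut IGF-binding proteins, were low, with 6.03 and 3.35 mean normalized counts per kilobase. *STC1* and *STC2*, whose products inhibit pappalysins, stood at 3056 and 855. *HTRA1*, a secreted serine protease gene, was at 90.7, and *ADAM12*, a metalloprotease gene, at 38.2. All 3 genes for the IGF2 mRNA-binding proteins, which bind and stabilize fetal transcripts, lay above the median of all genes, with *IGF2BP1* at 2153, *IGF2BP2* at 1575 and *IGF2BP3* at 360 per kilobase. *IGFALS*, whose product joins IGFBP3 in the plasma complex, was at 7.09. The related secreted proteins *IGFBPL1* and *KAZALD1* were at 338 and 68.6, and *ESM1* was not among the genes listed.

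The relays from the receptors to AKT, mTOR and FOXO were measured for 22 of 22 genes, of which 20 lay above the median of all genes. That median includes non-coding genes, and the share of protein-coding genes above it was not computed. The median of the relays was 406 mean normalized counts per kilobase, between the levels of *IGFBP4* and *IGF1R*. The adaptor gene *GRB2* was the highest at 2260. The receptor substrates *IRS1* and *IRS2* were at 718 and 654, and *IRS4* was at only 1.43. *AKT1* and *AKT2* were at 716 and 348. *PIK3R1*, a regulatory subunit gene of PI3 kinase, was at 527, whereas *PIK3R2* was at 1.77. For *PIK3R2*, 76.4% of the exon bases overlap other annotated genes, so that its low count is uncertain.

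**Figure D4:**
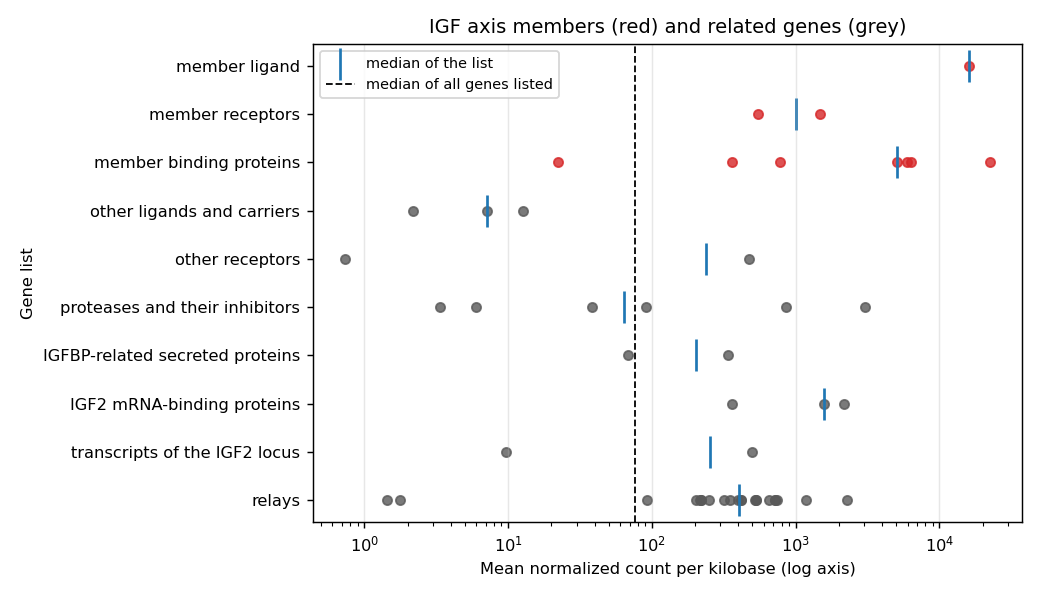
Mean normalized count per kilobase of merged exons (log axis) for the genes of each list, with 1 point per gene, members of the IGF axis in red and related genes in grey. The blue ticks are list medians and the dashed line is the median of all genes, 76.2, above which lie 6 of 7 binding protein genes, both member receptors and 20 of 22 relays.

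Marker lists of several cell types were read on the same scale, as a description and not as a test of cell identity. Of 10 pancreatic progenitor markers, 9 lay above the median of all genes, led by *GP2* at 33603, *SOX9* at 5259 and *PDX1* at 4969 mean normalized counts per kilobase. *PTF1A* was low at 7.64. The pluripotency markers *POU5F1* and *NANOG* were not among the genes listed. Of 4 liver markers, *TTR*, *APOA1* and *AFP* reached 26318, 12416 and 8334, while *ALB* was at 187, and all 4 were above the median. The list median was 10375 for liver and 1230 for pancreatic progenitors. Lying above the median of all genes therefore does not tell these cell types apart. Of 6 mesenchyme markers, 5 were listed and 3 lay above the median, with *COL1A2* at 4172, *COL1A1* at 454 and *PDGFRA* at 90.9, whereas *COL3A1* was at 47.4, *PDGFRB* at 15.9 and *DCN* was not listed. The 4 endothelial markers lay between 0.851 and 9.69. Of 6 endocrine markers, 3 were above the median, with *CHGA* at 1426, *NEUROG3* at 289 and *INSM1* at 199. The others were below it, with *INS* at 12.7, *NEUROD1* at 8.67 and *GCG* at 6.87. The part of other cell types in the levels of the IGF axis was not tested, and in bulk RNA a level cannot be split into the number of cells and the RNA per cell.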

How the data were processed

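Bulk polyA RNA sequencing was carried out on 18 samples in 6 groups of matrix and time. Per the labels and the paper's methods, the authors aligned reads with STAR 2.7.2d to GRCh38, counted reads per gene with STAR on a GENCODE annotation and normalized them with DESeq2 1.34.0. The value used is a signal that the authors made by averaging size-factor-normalized counts over all samples as deposited. It differed between the 3 listed times by at most 2.09e-07 of its value for the genes reported. The deposited log2 fold changes, their errors, test statistics and p-values of LN411 against FN are the authors' own comparisons and were not used. A planned count test needs values per sample and was not made, and a planned protein comparison was not made.

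Genes were matched to GENCODE v44 by Ensembl identifier. Lengths were merged exons, with the longest transcript, the canonical transcript and bases free of other genes as alternatives. Each length divided the same count of a gene, and no reads were counted again. Percentiles are shares of genes with a lower value. The functions were tested on simulated data. No interval or floor is given, as depth is unknown. Members and lists were chosen with earlier results of these data known, and every listed gene was to be named or summarized by count, range and median. Some genes of the relay list are not reported here. All steps ran in Python 3.11.15 with pandas 2.3.3, numpy 2.4.6, matplotlib 3.10.9 and scipy 1.17.1.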

Additional observations from a re-analysis of the deposited data

How the results depend on the processing

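The number of genes of the IGF axis in the highest 10% by mean normalized count stayed at 7 when ranks were taken among protein-coding genes only, among genes that reached a mean count of 10 and among genes listed at all 3 times. Their median percentile of 97.5 became 96.6, 97.2 and 97.1 in turn. Among protein-coding genes, the lowest tier moved most by count. The percentile of *IGFBP6* went from 64.3 to 49.5, that of *IGFBP4* from 60.4 to 44.2 and that of *IGFBP1* from 29.8 to 13.4. Levels per kilobase were not ranked again among protein-coding genes. The median level of 3274 per kilobase became 4233 with the longest transcript, 4248 with the canonical transcript and 3293 with bases free of other genes, the last of which was added after the data were seen. Shares of the binding protein total by count, per kilobase of merged exons and per kilobase of the canonical transcript, the last added after the data were seen, were 0.0201%, 0.0544% and 0.0240% for *IGFBP1*, 58.6%, 55.0% and 75.1% for *IGFBP2*, 12.7%, 12.4% and 8.82% for *IGFBP3*, 0.436%, 0.880% and 0.359% for *IGFBP4*, 21.0%, 14.4% and 6.09% for *IGFBP5*, 0.574%, 1.90% and 1.10% for *IGFBP6*, and 6.67%, 15.4% and 8.47% for *IGFBP7*. The ratio of *IGF2* to *IGFBP2* was 0.711 on merged exons and reversed to 1.28 with the same counts divided by bases free of other genes. The ratio of *IGFBP5* to *IGFBP3* was 1.16 on merged exons and reversed to 0.695 on longest and 0.690 on canonical transcripts, and that of *IGFBP7* to *IGFBP3* was 1.24 and reversed to 0.967 and 0.960. No paired analysis was possible because the value used is pooled over all samples. For the same reason, the alternatives of normalization, count filter and left-out replicates for LN411 against FN were not run. The spread between replicates and the depth limit what the order of close genes can show.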
